A study of Mus musculus with 24 samples.

Results

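The type I interferon-stimulated genes described here are 39 named genes, taken as the rows of the expression table that carry one of those names. Of these, 38 were among the 14293 genes of the table, and 37 were high enough to be tested. Oas3 lay under the limit on low values, and Mx2 was not analysed here. The list was set by name and by role (interferon-induced effectors, RNA and DNA sensors, transcription factors and feedback), with earlier results of these data known.

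Type I interferons bind a receptor on almost every nucleated cell, and the kinases JAK1 and TYK2 then phosphorylate STAT proteins such as STAT2. These join IRF9 and bind a short DNA element, the interferon-stimulated response element, in front of many target genes. The products detect foreign or misplaced nucleic acids, block translation and membrane fusion, modify proteins with the ubiquitin-like ISG15, or switch the receptor off again. In liver both hepatocytes and the resident and recruited immune cells can respond, and interferon gamma and interferon lambda induce many of the same genes.

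RNA was taken from 24 livers of mice (Mus musculus) with non-alcoholic steatohepatitis, a fatty liver disease with inflammation, and the groups were 8 livers of mice on vehicle, 8 on vutiglabridin and 8 on semaglutide. Vutiglabridin is a synthetic relative of the licorice flavonoid glabridin, presented by the series as a paraoxonase-2 agonist, and semaglutide mimics the gut hormone GLP-1 at its receptor. The labels state tissue and treatment and nothing more, so strain, sex, age, the way in which steatohepatitis was brought about, dose and duration are not given here. No group of healthy or untreated mice was analysed here, so levels are given relative to diseased livers on vehicle. Whether each sample is a separate animal is not stated, and p-values therefore reflect only how far these livers spread, which may be technical.

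Expression is in FPKM, fragments scaled by transcript length and by library size, as the authors deposited it. Steps among the low values implied a depth of 11.98 to 19.84 M (mega) fragments in vehicle, 5.96 to 15.24 M with vutiglabridin and 9.32 to 12.4 M with semaglutide. The FPKM of a library summed to 330352 ± 14299 in vehicle, 368614 ± 14580 under vutiglabridin and 343428 ± 14751 under semaglutide (SD, n = 8). All 114344 semaglutide values are written in a number format that no value of the other groups has, so separate processing and the drug cannot be told apart. The liver identity of the samples was clear from hepatocyte markers, with albumin (Alb) at 22085 ± 1586, 26608 ± 3893 and 26865 ± 3029 FPKM in the 3 groups. The 10 interferon ligand genes that were listed (Ifna1, Ifna2, Ifna4, Ifna5, Ifnb1, Ifne, Ifnk, Ifng, Ifnl2 and Ifnl3) were not analysed here, so the group's name rests on the known regulation of its members.

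Members differed widely in level. Averaged over all livers, 2 members exceeded 100 FPKM (Ifitm3 and Bst2), 10 lay between 10 and 100, 24 between 1 and 10, and 2 (Oas3 and Ifi44) under 1. In 31 of the 38 the median was lowest in the vutiglabridin group, and the vutiglabridin median was the highest of the 3 only for Stat2. The vehicle median was highest for 21 members and the semaglutide median for 16. FPKM is scaled to transcript length, so these levels can be set side by side between genes.

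Under vutiglabridin most of the tested members fell and none rose. Of 37 tested members, 23 fell at an adjusted p under 0.05 and 14 did not pass. The falls took in the feedback protease gene Usp18, the ubiquitin-like Isg15, the transcription factor gene Irf7, most of the oligoadenylate synthetase and Ifit genes, and Samd9l, Ifi44 and Trim30a. Over all 11562 genes tested, 8.78% fell and 6.53% rose in that comparison (1015 and 755 genes, 15.3% in all). With each library rescaled to the same total (TPM), 33 members and 2731 genes fell, and 0 members and 233 genes rose. The 10 members gained in TPM were Bst2, Ddx58, Dtx3l, Eif2ak2, Ifi35, Ifih1, Irf9, Oasl1, Parp12 and Parp9, so which members did not pass depends on the scaling. The median log2 difference of the members was -0.35 against 0.01 over all genes. On the log2(FPKM + 1) scale used throughout, 34 of the 37 differences were below 0, from -1.06 (Usp18) to 0.10 (Stat2). The 8 vutiglabridin livers lay below all 8 vehicle livers for 8 members (Irf7, Usp18, Oas1a, Oasl2, Samd9l, Ifi44, Trim30a and Lgals3bp), where 0.969% of all genes showed such a gap. No member showed the reverse, against 0.77% of all genes.

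Semaglutide did not give that one-sided picture. Here 7 members fell (Usp18, Oas1a, Oas2, Parp12, Xaf1, Lgals3bp and Ifi35), 4 rose (Trim25, Eif2ak2, Parp14 and Rnf213) and 26 did not pass. These are 18.9% and 10.8% of the tested members, and among all genes tested 12.7% fell and 14.3% rose, 27% in all. In TPM, 10 members fell and 3 rose, and 2116 genes fell and 1202 rose, against 1474 and 1650 in FPKM. The members' median difference was -0.06, against -0.01 for all genes. Only Rnf213 had all 8 semaglutide livers above all vehicle livers, and no member had all 8 below. Of all genes, 4.09% had the first kind of gap and 1.74% the second. The drugs share the 8 vehicle livers, so the results against vehicle are not independent of each other and are given side by side.

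Set directly against each other, the drug groups differed for 24 members. In that comparison 23 were lower under vutiglabridin than under semaglutide, 1 was higher (Stat2, not in TPM) and 13 did not pass. Over all genes tested, 12.6% were lower and 11.9% higher (24.4% in all, 1454 and 1372 genes, or 2264 and 596 in TPM), and the median was -0.29 for members and 0.01 for all genes. In 6 members (Zbp1, Usp18, Samd9l, Parp14, Ifi44 and Rnf213) all vutiglabridin livers lay below all semaglutide livers, as did 2.27% of all genes, and in no member did all lie above them (1.13% of all genes).

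**Figure D1:**
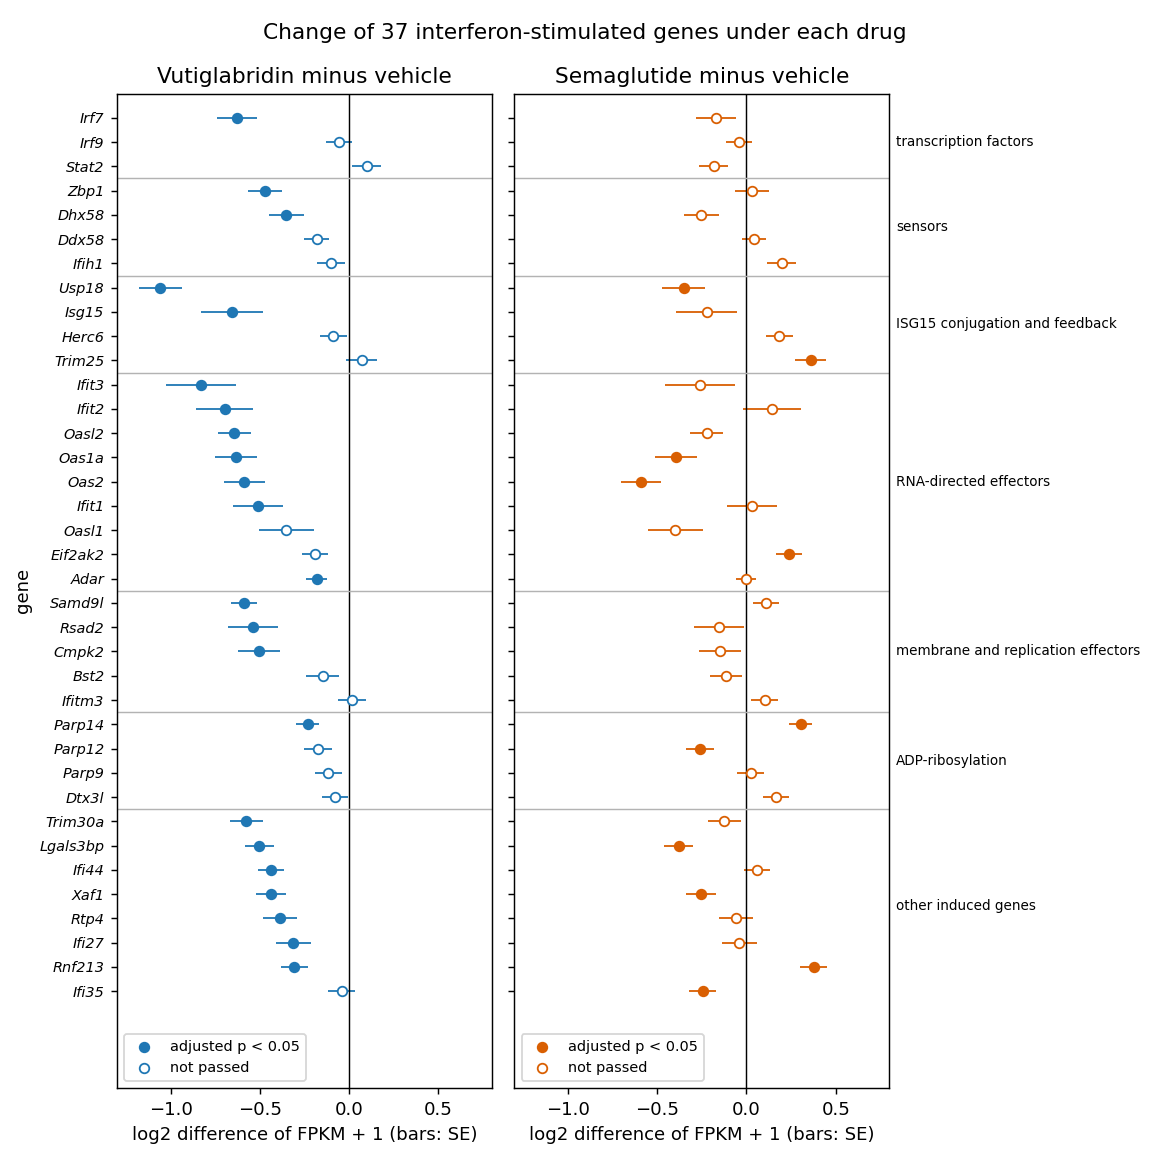
Log2 difference of FPKM + 1 for the 37 tested members, grouped by role, for vutiglabridin minus vehicle (left) and semaglutide minus vehicle (right), each point with its standard error. Filled points passed an adjusted p of 0.05. The 23 filled points on the left all lie below 0, whereas on the right 7 lie below and 4 above.

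The members' promoters were searched for the core letters of the response element. The core (GAAA, any 2 bases and GAAA again, read on both strands, so that TTTC, any 2 bases and TTTC also counts) was looked for in the 300 bases around each RefSeq start, counting overlapping matches. A promoter entry was matched for 30 of the 38 members (not for Dhx58, Ifi27, Oas2, Parp14, Parp9, Rtp4, Usp18 and Zbp1), and 13 of these (43.33%) held a match, compared with 3.99% of all 27025 genes with an entry and 3 of 30 of the other interferon pathway genes. A match is a run of letters and not a measured binding site. The sequences shown are from members whose values are described below and whose matches lie upstream of the start. Oas3 and Trim30a also have an upstream match and are not shown. They are from RefSeq on GRCm38.p6, written 5′ to 3′ on the strand of the gene, with the matches in capitals. The first pair gives the 250 bases upstream of Isg15 (chr4:156200819-156201068, minus strand), where 3 matches overlap, and of Ifit3 (chr19:34583279-34583528, plus strand), where 2 lie apart.
Isg15: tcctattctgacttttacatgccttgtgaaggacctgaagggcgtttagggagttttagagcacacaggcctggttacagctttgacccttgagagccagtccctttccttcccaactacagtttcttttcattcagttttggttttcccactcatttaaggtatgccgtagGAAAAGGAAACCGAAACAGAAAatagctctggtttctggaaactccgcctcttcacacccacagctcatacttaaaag
Ifit3: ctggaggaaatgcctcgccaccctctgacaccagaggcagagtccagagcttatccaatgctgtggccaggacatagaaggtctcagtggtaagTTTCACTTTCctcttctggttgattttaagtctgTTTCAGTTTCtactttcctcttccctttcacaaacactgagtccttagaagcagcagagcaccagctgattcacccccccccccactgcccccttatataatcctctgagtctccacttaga
Shorter stretches of 30 bases show matches in Ifit1 (chr19:34640775-34640804 and chr19:34640794-34640823, plus strand), Oas1a (chr5:120907526-120907555, minus), Rsad2 (chr12:26456553-26456582, minus), Stat2 (chr10:128270266-128270295, plus) and Bst2 (chr8:71537577-71537606, minus). Ifit1, Oas1a and Rsad2 fell under vutiglabridin, and Stat2 and Bst2 did not pass, so that both kinds of member are shown. In Oas1a and Bst2 the 2 matches overlap and share GAAA.
Ifit1, first match: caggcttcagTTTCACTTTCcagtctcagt
Ifit1, next match: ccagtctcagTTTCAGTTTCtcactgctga
Oas1a, both matches: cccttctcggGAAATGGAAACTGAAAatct
Rsad2: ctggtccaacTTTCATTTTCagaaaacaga
Stat2: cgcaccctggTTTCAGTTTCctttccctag
Bst2, both matches: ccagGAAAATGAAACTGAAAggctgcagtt
Matches were found both in members that fell under vutiglabridin (6 of 16 with an entry, namely Ifit1, Ifit3, Isg15, Oas1a, Rsad2 and Trim30a) and in those that did not pass (6 of 13, namely Bst2, Ddx58, Eif2ak2, Ifih1, Ifitm3 and Stat2). Oas3, which was not tested, also had 1. In Ddx58, Eif2ak2, Ifih1 and Ifitm3 the match lay downstream of the start. Irf7, Oasl2, Samd9l, Ifi44 and Lgals3bp, whose vutiglabridin livers were separate from vehicle, had no match in this window.

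The transcription factors that carry the signal did not move as 1 unit. Irf7, the induced factor that amplifies interferon production, stood at 9.31 to 15.6 FPKM in vehicle (median 12.1, mean 12.1 ± 2.16), 5.94 to 9.19 FPKM under vutiglabridin (median 7.45, mean 7.45 ± 1.15) and 7.78 to 14.4 FPKM under semaglutide (median 10.4, mean 10.7 ± 2.22). Every vutiglabridin liver was below every vehicle liver, while semaglutide livers overlapped both. The difference was -0.63 ± 0.11 (adjusted p = 0.000523) for vutiglabridin and -0.17 ± 0.11 (adjusted p = 0.27) for semaglutide (here and below, log2 difference ± SE against vehicle), with means ± SD over n = 8 livers. Irf9, the DNA-binding partner of STAT2, was at 6.81 to 9.89 FPKM in vehicle (median 7.74, mean 7.98 ± 1.04), 6.97 to 9.06 FPKM under vutiglabridin (median 7.32, mean 7.62 ± 0.745) and 6.19 to 9.26 FPKM under semaglutide (median 7.86, mean 7.72 ± 0.899). All 3 groups overlapped, and neither drug passed, at -0.06 ± 0.07 (adjusted p = 0.661) and -0.04 ± 0.07 (adjusted p = 0.716), with 95% intervals of -0.21 to 0.09 and -0.19 to 0.11. Stat2, which encodes that partner, was at 11.8 to 14.7 FPKM in vehicle (median 13, mean 13 ± 0.958), 11.4 to 18.8 FPKM under vutiglabridin (median 13.7, mean 14.2 ± 2.67) and 9.99 to 12.1 FPKM under semaglutide (median 11.7, mean 11.3 ± 0.796). Its highest vutiglabridin liver exceeded every other liver, and the semaglutide values were the narrowest and lowest. Neither drug passed against vehicle (0.10 ± 0.08, adjusted p = 0.458, and -0.18 ± 0.08, adjusted p = 0.0908), but vutiglabridin exceeded semaglutide by 0.28 ± 0.08 (adjusted p = 0.0117). In TPM that last call was lost (0.19, adjusted p = 0.0722), Stat2 fell under semaglutide (-0.25, adjusted p = 0.0211) and Irf9 fell under vutiglabridin (-0.21, adjusted p = 0.0392). Irf7 and Irf9 share part of their bases with a neighbouring gene (Phrf1 on the other strand, Rnf31 on the same strand). Adar and Rtp4, described below, overlap Chrnb2 and Masp1 on the other strand. The strand setting of the authors' counting is not given in the sources used here.

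Among the sensors, Zbp1 and Dhx58 fell under vutiglabridin and Ddx58 and Ifih1 did not pass, whereas in TPM all 4 fell (Ddx58 -0.35, adjusted p = 0.00285, and Ifih1 -0.26, adjusted p = 0.0472). Zbp1, a sensor of left-handed nucleic acid helices that can start cell death, was at 2.3 to 4.22 FPKM in vehicle (median 3.48, mean 3.3 ± 0.632), 1.46 to 2.42 FPKM under vutiglabridin (median 2.23, mean 2.08 ± 0.339) and 2.43 to 4.15 FPKM under semaglutide (median 3.48, mean 3.39 ± 0.597). In 5 vutiglabridin livers it lay below the lowest vehicle liver, and in all 8 below the lowest semaglutide liver. The differences were -0.47 ± 0.10 (adjusted p = 0.00143) for vutiglabridin, 0.03 ± 0.10 (adjusted p = 0.845) for semaglutide and -0.50 ± 0.10 (adjusted p = 0.000388) for vutiglabridin minus semaglutide. Dhx58 encodes LGP2, which tunes the other cytosolic RNA sensors, and stood at 4.74 to 7.37 FPKM in vehicle (median 5.64, mean 5.8 ± 0.823), 3.83 to 5.04 FPKM under vutiglabridin (median 4.22, mean 4.32 ± 0.462) and 3.35 to 5.97 FPKM under semaglutide (median 4.95, mean 4.77 ± 1.11). It was lower under vutiglabridin, at -0.35 ± 0.10 (adjusted p = 0.0157), with 6 livers under the vehicle range, and did not pass under semaglutide, at -0.25 ± 0.10 (adjusted p = 0.056).

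The main cytosolic sensors of viral RNA overlapped between vehicle and both drugs. Ddx58, which encodes RIG-I, was at 4.94 to 6.02 FPKM in vehicle (median 5.54, mean 5.47 ± 0.364), 3.93 to 6.01 FPKM under vutiglabridin (median 4.71, mean 4.74 ± 0.711) and 4.91 to 6.64 FPKM under semaglutide (median 5.41, mean 5.69 ± 0.616). Its differences were -0.18 ± 0.07 (adjusted p = 0.0749) and 0.04 ± 0.07 (adjusted p = 0.686) against vehicle, and -0.22 ± 0.07 (adjusted p = 0.018) between the drugs, the last of which passed. Ddx58 also passed under vutiglabridin with the replicate number as a block (-0.18, adjusted p = 0.04) and with GC and length trends removed (-0.19, adjusted p = 0.0309). Ifih1, which encodes the long-RNA sensor MDA5, was at 4.85 to 6.11 FPKM in vehicle (median 5.39, mean 5.47 ± 0.461), 3.79 to 6.18 FPKM under vutiglabridin (median 4.99, mean 5.07 ± 0.858) and 5.21 to 7.56 FPKM under semaglutide (median 6.63, mean 6.45 ± 0.84). In 5 semaglutide livers Ifih1 was above the whole vehicle range, yet the difference of 0.20 ± 0.08 (adjusted p = 0.0693) did not pass. Vutiglabridin was at -0.10 ± 0.08 (adjusted p = 0.443) against vehicle and -0.30 ± 0.08 (adjusted p = 0.00795) against semaglutide. With GC and length trends removed the difference of Ifih1 between the drugs was -0.17 and did not pass (adjusted p = 0.0693).

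ISG15 is a small protein that is attached to others much as ubiquitin is, and USP18 removes it and also blocks the interferon receptor. Usp18 (ENSMUSG00000030107, chr6:121245906-121270917) had the largest fall of all members, with values of 4.96 to 8.43 FPKM in vehicle (median 6.33, mean 6.46 ± 1.26), 1.62 to 3.55 FPKM under vutiglabridin (median 2.59, mean 2.59 ± 0.647) and 3.73 to 7.31 FPKM under semaglutide (median 4.53, mean 4.86 ± 1.13). The vutiglabridin livers were separate from both other groups, and their mean was 40.1% of the vehicle mean. The differences were -1.06 ± 0.12 (adjusted p = 8.28e-06) for vutiglabridin, -0.35 ± 0.12 (adjusted p = 0.0302) for semaglutide and -0.71 ± 0.12 (adjusted p = 0.000126) between the drugs. The semaglutide call of Usp18 was lost without any of 5 livers (vehicle replicates 2 and 8, semaglutide replicates 3, 4 and 8), with adjusted p from 0.0527 to 0.07. Isg15 (ENSMUSG00000035692, chr4:156199424-156200818), whose upstream bases with 3 overlapping matches are printed above, was at 10.9 to 16.9 FPKM in vehicle (median 13, mean 13.7 ± 2.41), 5.55 to 13.7 FPKM under vutiglabridin (median 7.67, mean 8.48 ± 2.62) and 6.39 to 22 FPKM under semaglutide (median 11.9, mean 12 ± 4.58). In 6 vutiglabridin livers Isg15 was below the vehicle range, whereas a single semaglutide liver held the highest value of all 24. The difference was -0.66 ± 0.17 (adjusted p = 0.0105) for vutiglabridin and -0.22 ± 0.17 (adjusted p = 0.361) for semaglutide, and the drugs did not pass against each other, at -0.43 ± 0.17 (adjusted p = 0.0655).

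The ligases of the same system gave no fall that passed against vehicle. Herc6, the mouse ISG15 ligase, was at 1.01 to 1.51 FPKM in vehicle (median 1.3, mean 1.26 ± 0.18), 0.78 to 1.44 FPKM under vutiglabridin (median 1.14, mean 1.13 ± 0.24) and 1.13 to 1.96 FPKM under semaglutide (median 1.58, mean 1.58 ± 0.307). Neither drug passed against vehicle (-0.09 ± 0.08, adjusted p = 0.493, and 0.19 ± 0.08, adjusted p = 0.0748), while vutiglabridin was lower than semaglutide, at -0.27 ± 0.08 (adjusted p = 0.0109). That Herc6 difference did not pass with GC and length trends removed (-0.10, adjusted p = 0.281) or with quantile normalization (-0.21, adjusted p = 0.0587). Trim25, a ubiquitin and ISG15 ligase that also activates RIG-I, was at 15.5 to 18.4 FPKM in vehicle (median 16.9, mean 16.7 ± 1.04), 14.6 to 24.4 FPKM under vutiglabridin (median 17.1, mean 17.7 ± 3.1) and 17.8 to 25.4 FPKM under semaglutide (median 22, mean 21.8 ± 2.95). It rose under semaglutide, with 6 livers above the vehicle range and a difference of 0.36 ± 0.09 (adjusted p = 0.00274), and did not pass under vutiglabridin, at 0.07 ± 0.09 (adjusted p = 0.64).

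**Figure D2:**
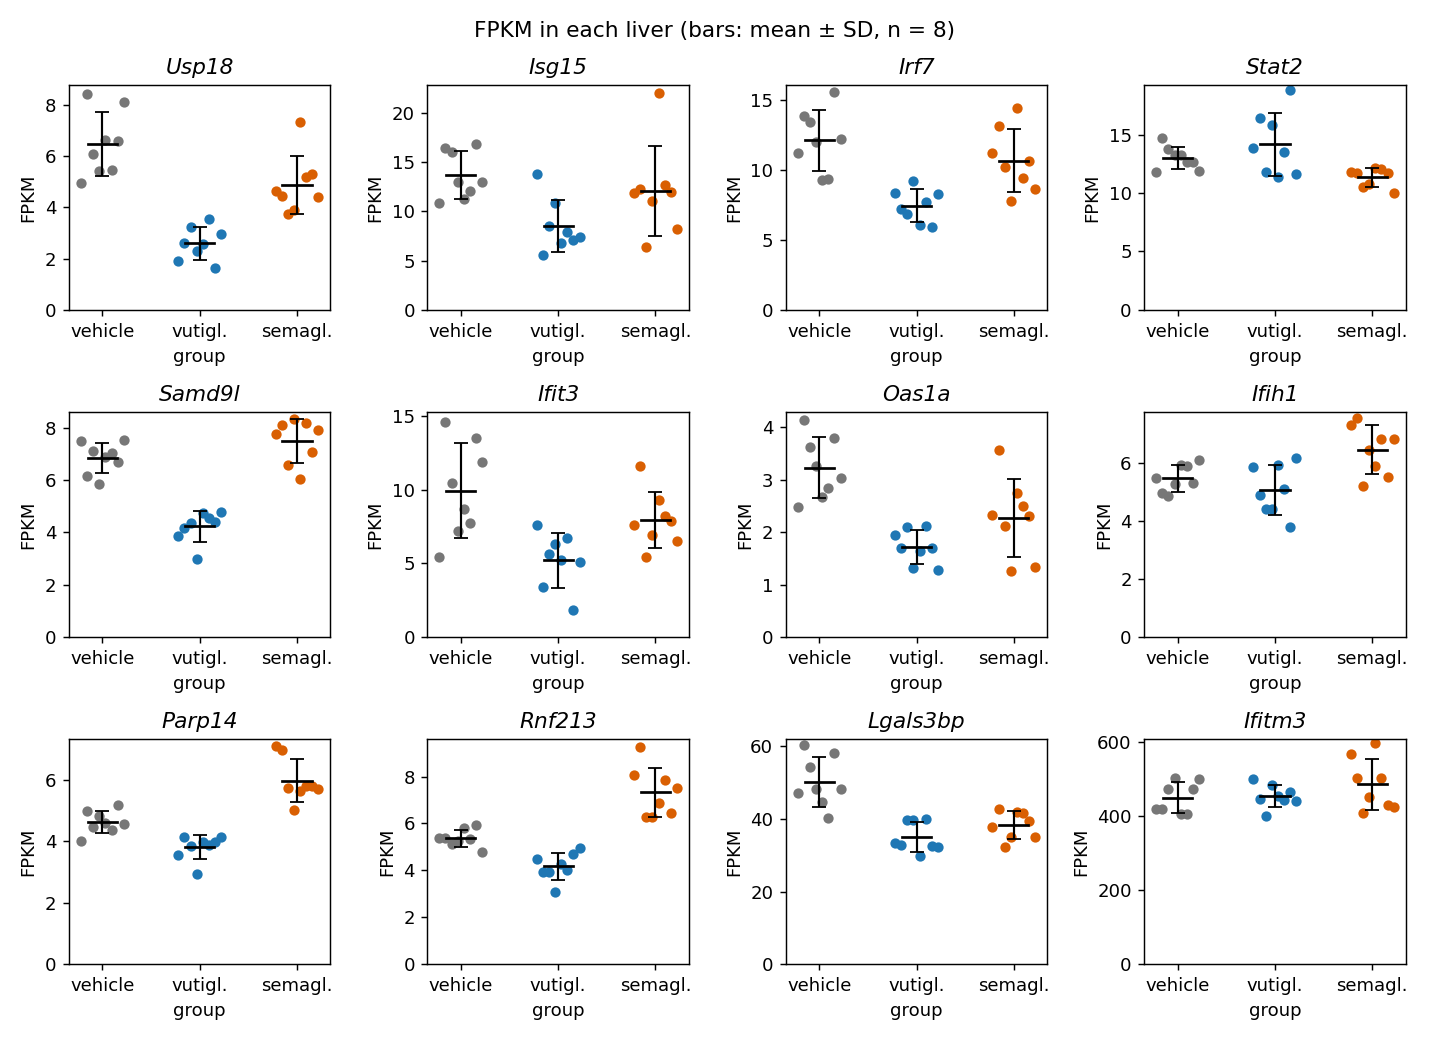
FPKM of 12 members in each of the 24 livers, by group, with the mean and SD of 8 livers as bars. Vutiglabridin values of Usp18, Irf7, Samd9l, Oas1a and Lgals3bp lie wholly under those of vehicle, Rnf213 is separate in the other direction for semaglutide, and Ifitm3 overlaps in all groups.

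The oligoadenylate synthetases make a small RNA-like messenger that activates ribonuclease L, and their relatives Oasl1 and Oasl2 lack or limit that activity. Oasl2, at chr5:114896936-114912234, was at 1.97 to 3.7 FPKM in vehicle (median 2.64, mean 2.71 ± 0.582), 1 to 1.67 FPKM under vutiglabridin (median 1.41, mean 1.36 ± 0.222) and 1.62 to 2.63 FPKM under semaglutide (median 2.21, mean 2.17 ± 0.421). Vehicle and vutiglabridin did not overlap, and the difference was -0.64 ± 0.09 (adjusted p = 7.02e-05), compared with -0.22 ± 0.09 (adjusted p = 0.0728) for semaglutide. Oas1a was at 2.48 to 4.14 FPKM in vehicle (median 3.14, mean 3.23 ± 0.584), 1.28 to 2.12 FPKM under vutiglabridin (median 1.69, mean 1.72 ± 0.32) and 1.25 to 3.56 FPKM under semaglutide (median 2.31, mean 2.27 ± 0.745). It fell under both drugs (-0.63 ± 0.12, adjusted p = 0.000684, and -0.39 ± 0.12, adjusted p = 0.0135), and all vutiglabridin livers but only 5 semaglutide livers lay under the vehicle range. Oas2 was at 1.86 to 3.34 FPKM in vehicle (median 2.39, mean 2.47 ± 0.549), 0.72 to 1.91 FPKM under vutiglabridin (median 1.41, mean 1.32 ± 0.403) and 0.83 to 2.01 FPKM under semaglutide (median 1.22, mean 1.3 ± 0.38). Both drugs had 7 livers under the vehicle range and nearly the same difference, -0.59 ± 0.11 (adjusted p = 0.00105) and -0.59 ± 0.11 (adjusted p = 0.000393), and the direct difference was 0.00 with a 95% interval of -0.23 to 0.24.

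Members of this family that lie outside these calls were Oasl1 and Oas3. Oasl1 did not pass under either drug, at -0.35 ± 0.15 (adjusted p = 0.127) and -0.40 ± 0.15 (adjusted p = 0.0556). Of 37 alternatives, it fell under vutiglabridin in 2 and under semaglutide in 10. Oas3 was too low for the test, at 0.33 to 0.79 FPKM in vehicle, 0.15 to 0.32 under vutiglabridin and 0.3 to 0.63 under semaglutide. Its vutiglabridin livers nevertheless lay under all vehicle livers, and with no limit on low values its difference was -0.29 (adjusted p = 0.00116).

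The IFIT proteins bind foreign RNA and stop its translation. Ifit3, the other member whose 250 upstream bases are printed, was at 5.44 to 14.6 FPKM in vehicle (median 9.54, mean 9.93 ± 3.23), 1.82 to 7.57 FPKM under vutiglabridin (median 5.43, mean 5.21 ± 1.85) and 5.43 to 11.6 FPKM under semaglutide (median 7.73, mean 7.92 ± 1.89). In 4 vutiglabridin livers Ifit3 was under the vehicle range, and the rest overlapped it. The difference was -0.83 ± 0.20 (adjusted p = 0.00545) for vutiglabridin and -0.26 ± 0.20 (adjusted p = 0.348) for semaglutide. Ifit1 was at 2.52 to 7.13 FPKM in vehicle (median 4.89, mean 4.69 ± 1.32), 2.17 to 4.16 FPKM under vutiglabridin (median 2.73, mean 2.95 ± 0.643) and 3.46 to 7.35 FPKM under semaglutide (median 4.45, mean 4.81 ± 1.34), with only 2 vutiglabridin livers below the vehicle range. It was lower under vutiglabridin, at -0.51 ± 0.14 (adjusted p = 0.0148), and did not pass under semaglutide, at 0.03 ± 0.14 (adjusted p = 0.889). Ifit2 also fell under vutiglabridin, at -0.70 ± 0.16 (adjusted p = 0.00473), and semaglutide was at 0.15 ± 0.16 (adjusted p = 0.551). Ifit3 and Ifit1, like Oas1a, have near-identical relatives in the mouse genome, and the share of reads given to each depends on the authors' counting.

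Of the effectors that sense or edit double-stranded RNA, Eif2ak2 rose under semaglutide and Adar fell under vutiglabridin. Eif2ak2 encodes PKR, the kinase that halts translation, and ran from 3.69 to 4.72 FPKM in vehicle, 2.78 to 4.46 under vutiglabridin and 4.29 to 5.78 under semaglutide. It rose under semaglutide, at 0.24 ± 0.07 (adjusted p = 0.018), with 6 livers above the vehicle range, and did not pass under vutiglabridin, at -0.19 ± 0.07 (adjusted p = 0.0823). In TPM the 2 calls of Eif2ak2 were exchanged, with 0.22 (adjusted p = 0.088) under semaglutide and -0.37 (adjusted p = 0.00694) under vutiglabridin. Adar encodes the enzyme that turns adenosine into inosine in such RNA, and fell slightly under vutiglabridin, at -0.18 ± 0.06 (adjusted p = 0.0297). That call was lost when any of 5 livers was left out (vehicle replicates 2 and 3, vutiglabridin replicates 1, 6 and 7), with adjusted p from 0.0537 to 0.0661 in those 5 fits. Quantile normalization also ended the call of Adar, at -0.15 (adjusted p = 0.0759).

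Of 5 tested effectors at membranes and in replication, 3 fell under vutiglabridin and none passed under semaglutide. Samd9l (ENSMUSG00000047735, chr6:3372257-3399572), an inhibitor of translation and of cell growth, was at 5.86 to 7.54 FPKM in vehicle (median 6.95, mean 6.84 ± 0.589), 2.97 to 4.76 FPKM under vutiglabridin (median 4.39, mean 4.23 ± 0.585) and 6.03 to 8.32 FPKM under semaglutide (median 7.83, mean 7.49 ± 0.838). Vutiglabridin was separate from both other groups, and the differences were -0.59 ± 0.07 (adjusted p = 2.42e-05) for vutiglabridin, 0.11 ± 0.07 (adjusted p = 0.276) for semaglutide and -0.70 ± 0.07 (adjusted p = 3.14e-07) between the drugs. Rsad2, which encodes viperin, an enzyme that makes a chain-ending nucleotide, was at 1.86 to 5.39 FPKM in vehicle (median 2.99, mean 3.2 ± 1.17), 1.12 to 2.37 FPKM under vutiglabridin (median 1.88, mean 1.83 ± 0.437) and 2.01 to 3.67 FPKM under semaglutide (median 2.54, mean 2.71 ± 0.668). Its neighbour Cmpk2, a mitochondrial nucleotide kinase that supplies viperin, was at 1.61 to 3.45 FPKM in vehicle (median 1.88, mean 2.13 ± 0.628), 0.72 to 1.71 FPKM under vutiglabridin (median 1.22, mean 1.19 ± 0.3) and 1.14 to 2.98 FPKM under semaglutide (median 1.67, mean 1.83 ± 0.57). In Rsad2 4 and in Cmpk2 7 vutiglabridin livers lay under the vehicle range. Rsad2 differed by -0.54 ± 0.14 (adjusted p = 0.00962) and Cmpk2 by -0.50 ± 0.12 (adjusted p = 0.00499), and under semaglutide they were at -0.15 ± 0.14 (adjusted p = 0.447) and -0.15 ± 0.12 (adjusted p = 0.379).

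The most abundant members, Ifitm3 and Bst2, passed in no comparison in the main model. Ifitm3, a membrane protein that hinders fusion of viruses in endosomes, was at 404 to 503 FPKM in vehicle (median 445, mean 449 ± 41.6), 399 to 498 FPKM under vutiglabridin (median 449, mean 453 ± 30.2) and 407 to 596 FPKM under semaglutide (median 476, mean 485 ± 69.3). All groups overlapped almost fully, with differences of 0.02 ± 0.08 (adjusted p = 0.918) and 0.10 ± 0.08 (adjusted p = 0.353). The 95% interval for vutiglabridin was -0.14 to 0.17, so a fall of the size of Usp18 lies outside it. With quantile normalization the vutiglabridin difference of Ifitm3 turned to -0.19 (adjusted p = 0.0425). Bst2, which encodes tetherin, ran over 174 to 231, 149.7 to 227 and 145 to 242 FPKM in the 3 groups and did not pass under either drug, at -0.15 ± 0.09 (adjusted p = 0.297) and -0.11 ± 0.09 (adjusted p = 0.384). In TPM and with quantile normalization Bst2 fell under vutiglabridin, at -0.31 (adjusted p = 0.00769) and -0.32 (adjusted p = 0.0105).

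The ADP-ribosylation members include 1 of the 2 genes called in opposite directions under the drugs. Parp14, a mono-ADP-ribosyltransferase, was at 4.01 to 5.18 FPKM in vehicle (median 4.59, mean 4.63 ± 0.368), 2.95 to 4.14 FPKM under vutiglabridin (median 3.92, mean 3.81 ± 0.392) and 5.02 to 7.11 FPKM under semaglutide (median 5.76, mean 5.97 ± 0.704). Semaglutide livers lay above the vehicle range in 7 of 8 cases and vutiglabridin livers below it in 6 of 8. It fell under vutiglabridin (-0.23 ± 0.06, adjusted p = 0.0149), rose under semaglutide (0.30 ± 0.06, adjusted p = 0.000917) and differed by -0.54 ± 0.06 (adjusted p = 1.67e-06) between the drugs. Parp12, which acts at the Golgi and on stress granules, was at 12.6 to 17 FPKM in vehicle (median 14.7, mean 14.7 ± 1.21), 10.9 to 16.1 FPKM under vutiglabridin (median 12.9, mean 13 ± 1.72) and 9.23 to 14.3 FPKM under semaglutide (median 12.5, mean 12.2 ± 1.58). It fell under semaglutide, at -0.26 ± 0.08 (adjusted p = 0.0153), with 5 livers under the vehicle range, and did not pass under vutiglabridin, at -0.17 ± 0.08 (adjusted p = 0.136).

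Parp9 and its partner ligase Dtx3l form a complex and share a promoter region. Parp9 was at 12.9 to 16.6 FPKM in vehicle (median 14, mean 14.2 ± 1.3), 10.2 to 17.3 FPKM under vutiglabridin (median 12.7, mean 13.1 ± 2.22) and 13.6 to 16.2 FPKM under semaglutide (median 14.1, mean 14.5 ± 0.907). The groups overlapped, and no comparison passed, at -0.12 ± 0.08 (adjusted p = 0.326), 0.03 ± 0.08 (adjusted p = 0.841) and -0.14 ± 0.08 (adjusted p = 0.17). Dtx3l did not pass against vehicle either, at -0.08 ± 0.07 (adjusted p = 0.533) and 0.17 ± 0.07 (adjusted p = 0.0924), while vutiglabridin was lower than semaglutide, at -0.25 ± 0.07 (adjusted p = 0.0162). The 2 genes overlap on opposite strands.

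Of the 8 remaining induced genes, 7 fell under vutiglabridin, Ifi35 being the exception. Rnf213 (ENSMUSG00000070327, chr11:119393100-119487418) encodes a very large ubiquitin ligase that coats lipid droplets and bacteria, and was at 4.8 to 5.92 FPKM in vehicle (median 5.36, mean 5.37 ± 0.357), 3.08 to 4.96 FPKM under vutiglabridin (median 4.15, mean 4.18 ± 0.578) and 6.27 to 9.28 FPKM under semaglutide (median 7.21, mean 7.32 ± 1.06). All semaglutide livers were above all vehicle livers and 7 of 8 vutiglabridin livers were below them. It fell under vutiglabridin (-0.31 ± 0.07, adjusted p = 0.00645), rose under semaglutide (0.38 ± 0.07, adjusted p = 0.000515) and differed by -0.68 ± 0.07 (adjusted p = 5.76e-07) between the drugs. Lgals3bp, a secreted glycoprotein that binds galectin-3, was at 40.2 to 60.4 FPKM in vehicle (median 48.2, mean 50.2 ± 6.89), 29.9 to 40.01 FPKM under vutiglabridin (median 33.2, mean 35 ± 4.07) and 32.2 to 42.7 FPKM under semaglutide (median 38.6, mean 38.2 ± 3.83). It was lower under both drugs, at -0.50 ± 0.08 (adjusted p = 0.000246) and -0.38 ± 0.08 (adjusted p = 0.00122), with no overlap between vutiglabridin and vehicle livers.

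Ifi44, a cytosolic protein that restrains growth and viral replication, was at 0.83 to 1.4 FPKM in vehicle (median 1.09, mean 1.08 ± 0.167), 0.37 to 0.58 FPKM under vutiglabridin (median 0.555, mean 0.531 ± 0.0718) and 0.74 to 1.62 FPKM under semaglutide (median 1.14, mean 1.18 ± 0.309). Vutiglabridin livers were below all others, and the differences were -0.44 ± 0.07 (adjusted p = 0.000263), 0.06 ± 0.07 (adjusted p = 0.578) and, between the drugs, -0.50 ± 0.07 (adjusted p = 2.21e-05). Trim30a, a mouse brake on inflammasome and NF-kB signalling with near-identical relatives beside it, was at 3.33 to 4.46 FPKM in vehicle (median 4.04, mean 4.01 ± 0.374), 1.86 to 2.85 FPKM under vutiglabridin (median 2.37, mean 2.37 ± 0.363) and 2.71 to 5.08 FPKM under semaglutide (median 3.25, mean 3.66 ± 0.923). It was separate from vehicle under vutiglabridin, at -0.57 ± 0.09 (adjusted p = 0.000236), and overlapped under semaglutide, at -0.12 ± 0.09 (adjusted p = 0.351). Ifi27, a mitochondrial protein and the most abundant of these 8, was at 78 to 135 FPKM in vehicle (median 97.4, mean 101 ± 18.3), 71.7 to 94.9 FPKM under vutiglabridin (median 79.6, mean 80.2 ± 7.56) and 75 to 124 FPKM under semaglutide (median 100, mean 97.7 ± 14.6). In only 3 vutiglabridin livers was Ifi27 below the vehicle range.

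Ifi27 passed narrowly, at -0.31 ± 0.10 (adjusted p = 0.0312), and semaglutide was at -0.04 ± 0.10 (adjusted p = 0.808). The vutiglabridin call of Ifi27 was lost without any of 5 livers (vehicle replicates 4 and 8, vutiglabridin replicates 2, 7 and 8), with adjusted p from 0.055 to 0.0634 in those fits. Xaf1, which promotes apoptosis, fell under both drugs (-0.44 ± 0.09, adjusted p = 0.00115, and -0.25 ± 0.09, adjusted p = 0.0291), the semaglutide call of Xaf1 being lost without vehicle replicate 7 or semaglutide replicate 3, 7 or 8 (adjusted p from 0.0524 to 0.0694). Rtp4, a chaperone of membrane receptors, fell under vutiglabridin (-0.39 ± 0.10, adjusted p = 0.00711) and did not pass under semaglutide (-0.06 ± 0.10, adjusted p = 0.689). Ifi35, a scaffold that can act as a danger signal, was lower under semaglutide, at -0.25 ± 0.08 (adjusted p = 0.0187), and not under vutiglabridin, at -0.04 ± 0.08 (adjusted p = 0.767).

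Over the 3 comparisons, 14 members were lower under vutiglabridin than in both other groups while semaglutide did not pass against vehicle (Zbp1, Adar, Ifi44, Oasl2, Samd9l, Trim30a, Irf7, Cmpk2, Rsad2, Ifi27, Rtp4, Ifit1, Ifit2 and Ifit3). For 4 of these the call between the drugs was lost in many of 37 alternatives. It held in 22 for Rsad2, 24 for Ifi27 and 29 each for Cmpk2 and Ifit3, with adjusted p up to 0.0881, 0.0855, 0.0732 and 0.0802. Leaving out vutiglabridin replicate 7 or semaglutide replicate 5, 6 or 7 ended the call for all 4, and other single livers ended it for Rsad2 (vutiglabridin replicates 2, 3, 4 and 8, semaglutide replicates 1 and 2), Ifi27 (vutiglabridin replicates 2, 3, 4 and 8, semaglutide replicates 1, 3 and 4), Ifit3 (vutiglabridin and semaglutide replicates 2) and Cmpk2 (vutiglabridin replicate 4). Usp18 was lower under both drugs and lower still under vutiglabridin. Oas2, Oas1a, Xaf1 and Lgals3bp were lower under both with no call between the drugs, where the 95% intervals of the direct difference, with no adjustment for the number of genes, were -0.23 to 0.24, -0.48 to 0.00, -0.36 to -0.01 and -0.29 to 0.04. With GC and length trends removed, Oas1a (-0.35, adjusted p = 0.0261) and Lgals3bp (-0.19, adjusted p = 0.0413) were lower under vutiglabridin than under semaglutide. In TPM the same held for Xaf1 (-0.33, adjusted p = 0.0429). Rnf213 and Parp14 went in opposite directions. Oasl1, Ifitm3, Bst2, Irf9 and Parp9 passed in no comparison in the main model. In the 37 alternatives Oasl1 fell under semaglutide in 10. Between the drugs Ifitm3 was lower under vutiglabridin in 4 and Parp9 in 2.

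Single livers carried these patterns to different degrees. The median difference of the 37 members from the vehicle mean ran from -0.09 to 0.19 over vehicle livers, from -0.45 to -0.22 over vutiglabridin livers and from -0.26 to 0.14 over semaglutide livers. Every vutiglabridin liver therefore stood below every vehicle liver on this median, and semaglutide livers overlapped both ranges. In a single vutiglabridin liver 17 to 30 members were below all vehicle livers and 0 to 4 above them. In a single semaglutide liver 2 to 18 were below and 3 to 12 above. The matching shares over all genes tested were not counted, so these numbers only describe single livers and have no background beside them. Vehicle replicate 2 held the highest vehicle value for 20 members, and vutiglabridin replicates 4 and 7 each held the lowest of their group for 10. Replicate 7 also had the fewest implied fragments, 5.96 M, and without it 21 members fell under vutiglabridin. Vutiglabridin replicate 4 stood apart below the other 7 livers of its group for Ifi44 (0.37 FPKM, the next at 0.51), Samd9l (2.97, the next at 3.87) and Parp14 (2.95, the next at 3.56). Semaglutide replicate 5 was the highest of its group for 16 members and replicate 3 the lowest for 17. Within groups the members varied by a median of 14.2% (coefficient of variation, vehicle), 16.3% (vutiglabridin) and 16.7% (semaglutide), from 6.21% to 36.4% among members in vehicle.

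**Figure D3:**
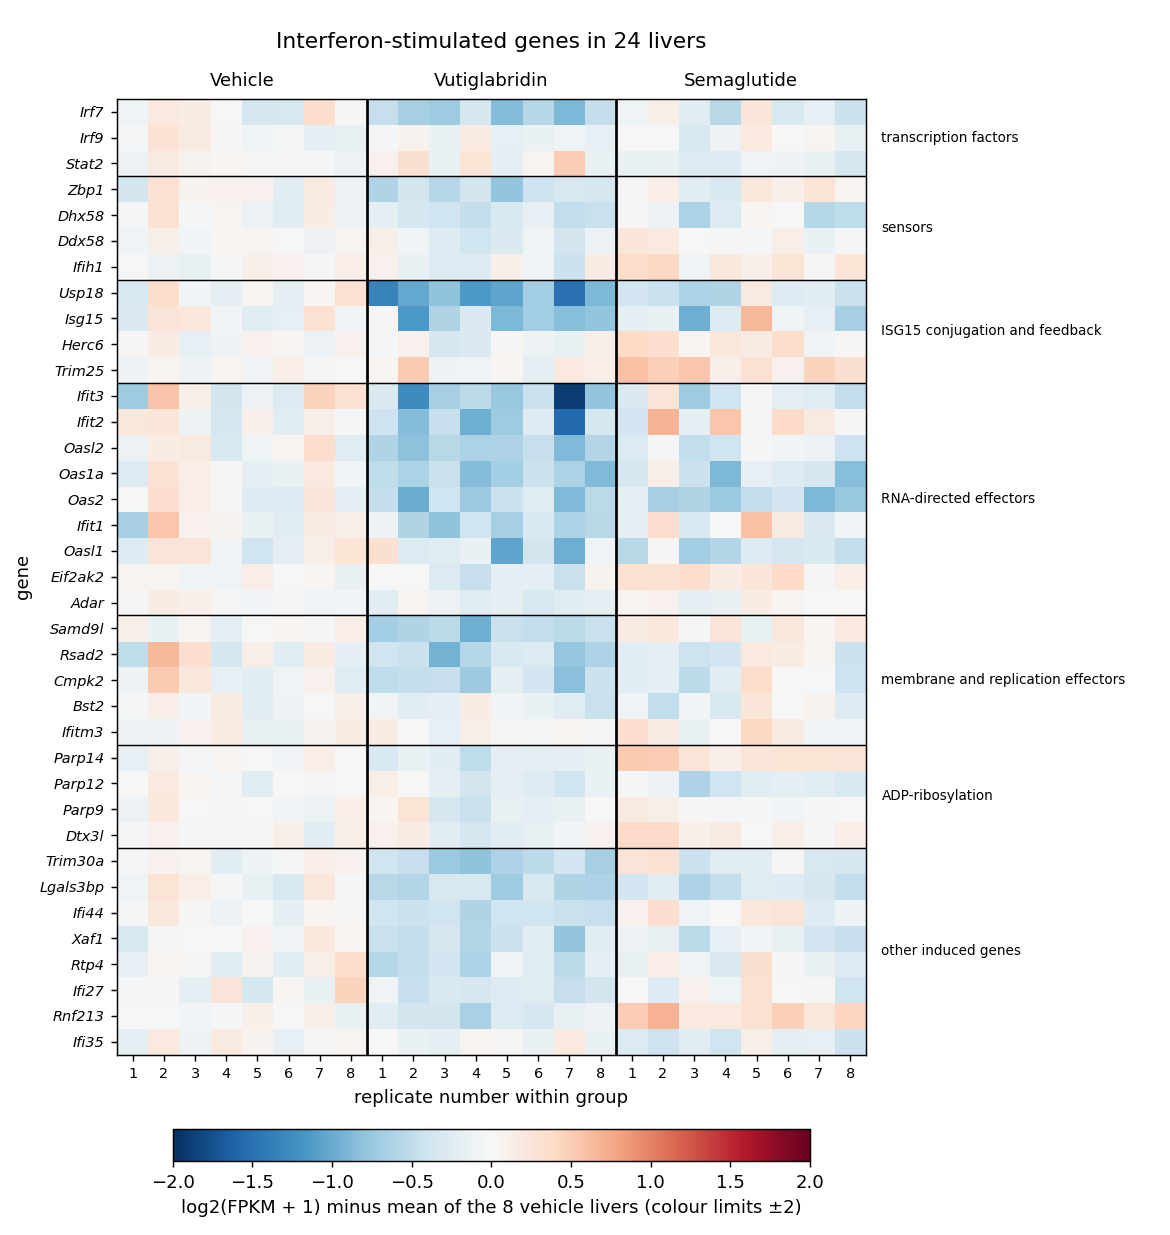
Log2(FPKM + 1) of each tested member in each liver, as the difference from the mean of the 8 vehicle livers, with blue lower and red higher and colours limited at ±2. Columns are livers by replicate number and rows are members by role. The vutiglabridin block is blue in most rows, with medians per liver from -0.45 to -0.22, and the semaglutide block is mixed, from -0.26 to 0.14.

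Semaglutide differences were higher in longer members. Across the 37 members Spearman's rho was 0.54 between the semaglutide difference and total exon length and -0.54 with GC content, compared with 0.27 and -0.30 over all 11562 genes. For vutiglabridin the values were 0.29 and 0.09 over members, and -0.02 and -0.07 over all genes. These correlations are across genes of the same libraries, which are not independent, and are given as a description. The 4 members that rose under semaglutide had a median exon length of 7530 bp and the 7 that fell 2847 bp, Rnf213 being the longest member of all at 16888 bp. When trends with GC content and exon length were removed from each library, 7 members passed under semaglutide, 3 lower (Oas2, Xaf1 and Lgals3bp) and 4 higher (Trim25, Parp14, Rnf213 and, newly, Ifitm3). Usp18, Oas1a, Parp12, Ifi35 and Eif2ak2 no longer passed. Under vutiglabridin all 23 remained, with Ddx58 and Eif2ak2 added, all lower.

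**Figure D4:**
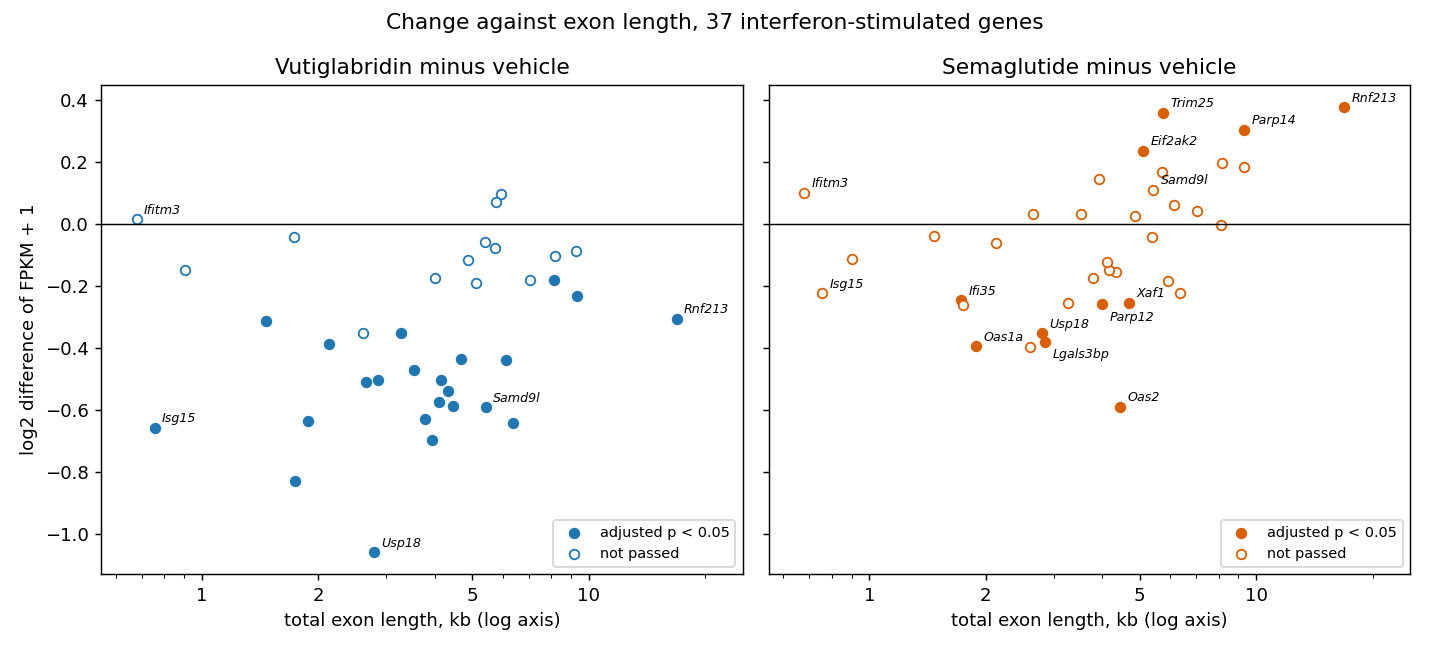
Log2 difference of FPKM + 1 of the 37 tested members against total exon length in kilobases (log axis), for vutiglabridin (left) and semaglutide (right). Under semaglutide the 4 members that rose are long, with a median of 7530 bp, and Spearman's rho is 0.54, compared with 0.29 under vutiglabridin.

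Upstream of the members, the machinery of interferon induction and signalling held genes that fell and genes that rose. Of 49 other pathway genes listed, 37 were in the table and 33 were tested. Under vutiglabridin 13 of these fell and 1 rose (39.4% and 3.03%, against 8.78% and 6.53% of all genes tested). Under semaglutide 8 fell and 4 rose (24.2% and 12.1%, against 12.7% and 14.3%), so the share that rose was near that of all genes. Between the drugs 4 were lower and 2 higher under vutiglabridin (12.1% and 6.06%, against 12.6% and 11.9%). The list's median difference was -0.10 under vutiglabridin and -0.08 under semaglutide. The vutiglabridin count was 7 without vehicle replicate 7 and 9 without vehicle replicate 2 or vutiglabridin replicate 2.

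The receptor for type I interferons did not pass under either drug. Ifnar1 was at 6.98 to 8.21, 7.02 to 9.21 and 7.94 to 8.88 FPKM in vehicle, vutiglabridin and semaglutide livers, with differences of 0.05 ± 0.05 (adjusted p = 0.546) and 0.12 ± 0.05 (adjusted p = 0.0692). Ifnar2 was at 9.72 to 15.1, 10.5 to 15.9 and 9.74 to 15.8 FPKM, with differences of 0.12 ± 0.09 (adjusted p = 0.425) and 0.07 ± 0.09 (adjusted p = 0.591). The kinase gene Tyk2 did not pass under vutiglabridin (adjusted p = 0.998) or semaglutide (-0.12 ± 0.08, adjusted p = 0.262). Its partner Jak1 did not pass under vutiglabridin (0.02 ± 0.06, adjusted p = 0.85) and rose under semaglutide (0.31 ± 0.06, adjusted p = 0.000202), as did Jak2 (0.36 ± 0.07, adjusted p = 0.00019). Both subunits of the interferon gamma receptor fell under vutiglabridin, Ifngr1 at -0.28 ± 0.08 (adjusted p = 0.0214) and Ifngr2 at -0.35 ± 0.08 (adjusted p = 0.00295), and did not pass under semaglutide, at -0.07 ± 0.08 (adjusted p = 0.553) and -0.19 ± 0.08 (adjusted p = 0.0675). Il10rb, a subunit shared by the interferon lambda receptor, fell under both (-0.24 ± 0.07, adjusted p = 0.0302, and -0.31 ± 0.07, adjusted p = 0.00267).

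Irf1, an early target of interferon gamma, did not pass, at 0.04 ± 0.10 (adjusted p = 0.824) and 0.14 ± 0.10 (adjusted p = 0.334). Irf5 and Irf8, factors of myeloid cells, fell under both drugs (Irf5 -0.43 and -0.43, Irf8 -0.34 and -0.30).

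Among the adaptors that lead to interferon production, Tmem173, which encodes STING, fell under vutiglabridin (-0.41 ± 0.13, adjusted p = 0.0306) and did not pass under semaglutide (-0.29 ± 0.13, adjusted p = 0.0927). Unc93b1, Tlr3 and Tlr7, which serve endosomal RNA sensing, also fell under vutiglabridin, at -0.32, -0.22 and -0.35. Mavs, the mitochondrial adaptor of RIG-I and MDA5, rose under both drugs, at 0.26 ± 0.07 (adjusted p = 0.015) and 0.23 ± 0.07 (adjusted p = 0.0209). In TPM the vutiglabridin difference of Mavs was 0.11 and did not pass (adjusted p = 0.229). Of the vutiglabridin calls among these adaptors and receptors, that of Tlr3 held in 16 of 37 alternatives, Il10rb in 28, Tmem173 in 29 and Unc93b1 in 32. Of the enzymes that load ISG15, the activating Uba7 fell under both (-0.40 ± 0.08, adjusted p = 0.00227, and -0.29 ± 0.08, adjusted p = 0.0126) and the conjugating Ube2l6 did not pass (-0.10 ± 0.08, adjusted p = 0.461, and 0.08 ± 0.08, adjusted p = 0.494). Samhd1, which degrades nucleotides, fell under both, at -0.43 ± 0.08 (adjusted p = 0.000916) and -0.28 ± 0.08 (adjusted p = 0.0127).

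Several immune cell markers fell in the same livers, where 8.78% of all genes tested fell under vutiglabridin and 12.7% under semaglutide. The falls did not take in every immune cell type. None of the 3 tested markers of conventional dendritic cells or the 3 of neutrophils passed under either drug. All 4 leukocyte markers fell under vutiglabridin (Ptprc, Laptm5, Coro1a and Cd52), their summed level being 26.69 to 54.28 FPKM in vehicle, 15.82 to 30.23 under vutiglabridin and 21.38 to 34.87 under semaglutide, where 2 of 4 fell. Ptprc did not pass under semaglutide (-0.06, adjusted p = 0.628) but fell there with GC and length trends removed (-0.34, adjusted p = 0.0123). All 5 tested of 7 markers of recruited monocytes and macrophages (Ccr2, Cx3cr1, Itgax, Gpnmb and Trem2) fell under both drugs. The vutiglabridin call of Gpnmb (-0.66, adjusted p = 0.0402) held in 27 of 37 alternatives, with adjusted p up to 0.0975. Summed over all 7 markers, the levels were 17.56 to 35.39, 9.28 to 20.87 and 9.41 to 19.01 FPKM in vehicle, vutiglabridin and semaglutide livers. Ccr2, which brings monocytes from blood, gave -0.84 ± 0.10 (adjusted p = 2.42e-05) and -0.37 ± 0.10 (adjusted p = 0.0105). Between the drugs 2 of the 5 were lower under vutiglabridin, Ccr2 at -0.48 ± 0.10 (adjusted p = 0.00161) and Cx3cr1 at -0.41 ± 0.12 (adjusted p = 0.0114), and so was Ptprc among the leukocyte markers, at -0.37 ± 0.08 (adjusted p = 0.00239), or -0.11 (adjusted p = 0.43) with GC and length trends removed.

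Markers of resident Kupffer cells gave 0 of 6 calls under vutiglabridin and 1 under semaglutide (Cd5l lower, -0.73 ± 0.24, adjusted p = 0.0265), with sums of 83.9 to 317.56, 65.3 to 196.45 and 51.16 to 115.9 FPKM. Of the T and NK cell markers, both tested of 6 (Cd8a and Nkg7) fell under vutiglabridin and none under semaglutide. The vutiglabridin call of Nkg7 held in 28 of 37 alternatives. Summed over all 6, these markers were at 2.59 to 6.2, 0.61 to 3.32 and 2.54 to 7.18 FPKM. Plasmacytoid dendritic cells, the main makers of type I interferon, could not be followed. None of their 4 measured markers was high enough to be tested, with sums of at most 0.76 FPKM, and Siglech was listed at 0 in 2 and Klk1 in 10 of 24 libraries. The 4 stellate cell markers did not pass under vutiglabridin, and Dcn fell under semaglutide (-0.38 ± 0.08, adjusted p = 0.00105). Of 6 hepatocyte markers, 3 rose under each drug. The part of these cell changes in the members' differences was not tested, and fewer cells of a type and less RNA per cell cannot be told apart in bulk tissue.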

How the data were processed

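The data are a deposited table of FPKM for 14293 genes in 24 livers. The authors made the FPKM values with length and depth scaling. The submitters' processing notes name HISAT2, StringTie and DESeq2, with no version, role or genome build in the sources used here. Per the labels' protocols, the libraries came from a stranded kit for mRNA. All 14293 identifiers and symbols matched GENCODE M21 (GRCm38), from which coordinates, exon length and GC content were taken, and no other column of per-sample values was present (0).

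From the table, log2(FPKM + 1) was computed, which understates differences of low genes. The 11562 genes that reached 0.5 FPKM in 8 samples or more entered 1 limma model (3.58.1, R 4.3.3, moderated 2-sided test with a mean trend, 3 groups). Benjamini-Hochberg adjustment of the p-values ran over all genes in each comparison, with a threshold of 0.05. The depth per library was read from the steps of low FPKM values, and it limits low members such as Oas3 and Ifi44. No 2 libraries were identical.

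The 39 members, their roles, the pathway and marker lists and the tests were chosen with earlier results of these data known. Named with full values were, in each role, the 3 members with the lowest p under vutiglabridin, the most abundant member, any member called in opposite directions, and Usp18, Isg15, Irf7, Irf9, Stat2, Ifih1, Ddx58 and Ifit1. Alternatives were pseudocounts of 0.1 and 0.5, other filters (none, or a mean of 1 FPKM), TPM, quantile normalization, median centring, only the 2 groups compared, a robust spread, sample weights, the replicate number as a block, removal of GC and length trends (splines with 5 degrees of freedom) with and without that block, and each library left out in turn. Leaving out rows that share a symbol was added after the data were seen. The test was checked on simulated data. The values of 1 pathway gene, which stays in the counts, are not reported here.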

Additional observations from a re-analysis of the deposited data

Results flagged for a closer look

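In 4 of 111 sets of 8 livers (37 members in 3 groups), 1 liver lay further from the rest than the 95% limit of Dixon's test allows, and chance alone gives about 1 in 20 such sets. Vutiglabridin replicate 4 was the lowest of its group for Ifi44 at 0.37 FPKM, with the next liver at 0.51. The same liver was lowest for Samd9l at 2.97 FPKM, with the next at 3.87, and for Parp14 at 2.95 FPKM, with the next at 3.56. Vehicle replicate 7 was the lowest vehicle liver for Dtx3l at 10.41 FPKM, with the next at 11.97.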

How the results depend on the processing

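Of the 23 members called lower under vutiglabridin, 21 stayed called in each of 37 alternatives in which they were tested (Ifi44 is not tested at a mean of at least 1 FPKM), the exceptions being Adar and Ifi27. Of the 11 semaglutide calls 5 did so (Lgals3bp, Oas2, Parp14, Rnf213 and Trim25), and of the 24 between the drugs 17. With TPM the median of all genes moved to -0.13 under vutiglabridin, 2964 genes passed instead of 1770, and the members' median was -0.55. Between the drugs TPM gave a members' median of -0.43 and 12 pathway genes (12 lower, 0 higher) instead of 6. Quantile normalization turned Ifitm3 under vutiglabridin to -0.19 and gave 7 pathway genes instead of 14. Removal of GC and length trends gave 7 semaglutide calls instead of 11, of which 6 were shared. The cause of these shifts was not tested.

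With single libraries left out, 21 to 24 members passed under vutiglabridin, 9 to 14 under semaglutide and 20 to 25 between the drugs, and pathway genes numbered 7 to 14, 10 to 14 and 5 to 8. The members' medians ran from -0.39 to -0.32, -0.11 to -0.03 and -0.31 to -0.26, and over all genes 1286 to 2025, 2694 to 3362 and 2418 to 3154 passed. Replicate numbers gave no clear pairing of the livers. Same-numbered livers of vehicle and vutiglabridin correlated at -0.12 to 0.28 in their deviations, with 6 of 8 above 0.1 (2 for semaglutide and vehicle, 3 between the drugs). Only 2 of 8 correlated best with their own number (1 of 8 in each of the other comparisons). These values cannot decide whether a weak grouping follows the replicate number. With the replicate number as a block 23, 12 and 22 members passed, Ifi27 being replaced by Ddx58 under vutiglabridin, and with the trends also removed 25, 8 and 23. Leaving out rows that share a symbol changed no member's call (23, 11 and 24).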

Other observations

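Members lie on 14 chromosomes, and 15 of the 38 lie in 6 clusters with gaps of at most 300000 bp (GRCm38, GENCODE M21). In the Ifit cluster (chr19:34550694-34650009) Ifit2, Ifit3 and Ifit1 all fell under vutiglabridin and none passed under semaglutide. Rsad2 and Cmpk2 (chr12:26442746-26479837) did the same. In the Oas cluster (chr5:120730333-120907521) Oas2 and Oas1a fell under both drugs, and Oas3 between them was not tested. The remaining clusters held members with unlike calls on the FPKM scale. Oasl2 fell under vutiglabridin and its neighbour Oasl1 did not pass (chr5:114896936-114937915), Irf7 fell and Ifitm3 did not pass (chr7:141009586-141266481), and Parp14 fell while Dtx3l and Parp9 did not pass (chr16:35832874-35972605). In TPM, Oasl1 (-0.55, adjusted p = 0.0221), Dtx3l (-0.24, adjusted p = 0.0339) and Parp9 (-0.28, adjusted p = 0.0125) also fell under vutiglabridin, so this contrast depends on the scaling.

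Of the other markers, those of B and plasma cells reached a summed 58.25 FPKM in 1 vehicle liver, against a vehicle median of 4.03. Of 3 tested, Cd79b alone fell under vutiglabridin, at -0.63 ± 0.21 (adjusted p = 0.0423). That call held in 24 of 37 alternatives. Of 4 tested bile duct markers, Krt19 alone fell under vutiglabridin (-0.77 ± 0.23, adjusted p = 0.0234) and not under semaglutide (0.02 ± 0.23, adjusted p = 0.971). The vutiglabridin call of Krt19 held in 34 of 37 alternatives. The other 3 did not pass under vutiglabridin, although all 4 differences were below 0, and none of the 4 passed under semaglutide. Of 5 tested markers of sinusoidal endothelium, Clec4g rose under both drugs (0.29 ± 0.07, adjusted p = 0.0072, and 0.23 ± 0.07, adjusted p = 0.016), and Kdr rose under semaglutide (0.43 ± 0.08, adjusted p = 0.000157). Under vutiglabridin 4 of the 5 did not pass. Under semaglutide 3 did not pass, and 2 of the 5 differences were below 0. In TPM the vutiglabridin difference of Clec4g was 0.14 and did not pass (adjusted p = 0.13).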
